A study of Mus musculus with 6 samples.

Results

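The 10 cytokine genes examined here were measured across the immune cells of the mouse brain. They are Il1a, Il1b, Il1rn, Tnf, Il6, Il10, Il18, Csf1, Osm and Tnfsf9. They were taken by name from the normalized RNA table as inflammatory and regulatory cytokines, and all 10 were found among its 19848 genes. The cells came from female C57BL/6 mice of 12 weeks (young) or 72 weeks (aged), which carried no transgene or mutation by the labels. At each age 1 arm received vehicle (control) and the other an antibiotic mixture that depletes the gut microbiota. The 24 mice formed 12 pools, 3 for each age and arm and hence 4 groups, so that a pool stands for 2 mice. Brains were perfused with PBS, digested with papain and enriched for mononuclear cells on Percoll, and RNA, surface-protein tags and pool hashtags were read from the same cells (CITE-seq). No antibody of the panel detected any of the 10 cytokines, so every value below is of RNA.

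Interleukin-1α and interleukin-1β, encoded by Il1a and Il1b, signal through the same receptor, and Il1rn encodes the antagonist that blocks it. Interleukin-1β and interleukin-18 are made as inactive precursors that caspase-1 cleaves inside inflammasomes, whereas the interleukin-1α precursor is already active. Tnf and Il6 encode acute inflammatory cytokines, Il10 an anti-inflammatory one, Osm (oncostatin M) a relative of interleukin-6 made by myeloid cells, and Tnfsf9 the ligand of the T cell co-stimulator 4-1BB. Csf1 encodes a growth factor on which the survival of microglia, the resident macrophages of the brain, depends through the receptor Csf1r. Many of these genes have promoters with sites for NF-kappaB and AP-1, a pair of transcription factors that inflammatory signals activate.

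Of the members, 5 passed a test between groups in at least 1 cell type and have an entry in the RefSeq promoter table (build GRCm38.p6). The 250 bases before their start sites are shown, so that the elements near the starts can be read beside the values. Each runs 5′ to 3′ on the gene's strand and ends at the base before the start. Capitals mark matches, on either strand, to the kappaB motif, to the AP-1 motif TGANTCA or to the TATA box TATAAA. The windows are chr2:129309973-129310222 (minus strand) for Il1a, chr2:129371140-129371389 (minus) for Il1b, chr17:35202008-35202257 (minus) for Tnf, chr3:107760470-107760719 (minus) for Csf1 and chr5:30012864-30013113 (plus) for Il6.
Il1a: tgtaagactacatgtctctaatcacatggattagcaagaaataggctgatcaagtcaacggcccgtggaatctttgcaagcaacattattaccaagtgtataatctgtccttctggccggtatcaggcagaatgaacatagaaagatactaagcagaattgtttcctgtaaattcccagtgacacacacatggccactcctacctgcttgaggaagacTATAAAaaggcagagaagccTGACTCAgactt
Il1b: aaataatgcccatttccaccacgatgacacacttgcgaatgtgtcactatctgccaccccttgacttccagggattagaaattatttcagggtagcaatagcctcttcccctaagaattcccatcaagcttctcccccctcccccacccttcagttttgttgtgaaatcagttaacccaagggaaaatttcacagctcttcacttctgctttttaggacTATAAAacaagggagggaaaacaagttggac
Tnf: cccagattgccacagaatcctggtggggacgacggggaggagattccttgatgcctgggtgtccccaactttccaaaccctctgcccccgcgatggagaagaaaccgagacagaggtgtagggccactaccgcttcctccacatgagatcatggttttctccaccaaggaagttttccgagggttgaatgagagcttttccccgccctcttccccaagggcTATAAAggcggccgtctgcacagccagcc
Csf1: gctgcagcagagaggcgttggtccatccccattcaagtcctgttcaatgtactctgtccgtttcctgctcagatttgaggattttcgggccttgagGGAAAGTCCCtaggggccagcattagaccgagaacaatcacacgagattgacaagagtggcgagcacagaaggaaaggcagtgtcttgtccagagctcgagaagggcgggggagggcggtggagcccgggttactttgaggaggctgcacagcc
Il6: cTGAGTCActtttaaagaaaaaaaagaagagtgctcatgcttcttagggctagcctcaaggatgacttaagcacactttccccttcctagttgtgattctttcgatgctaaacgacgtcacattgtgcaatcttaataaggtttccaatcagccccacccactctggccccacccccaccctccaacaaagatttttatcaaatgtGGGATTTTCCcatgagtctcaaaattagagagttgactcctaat
Positions are counted back from the start, with the base before it at -1. The TATA box began at -32 in Il1a, -31 in Il1b and -29 in Tnf. Il1a also held an AP-1 match at -12, Il6 an AP-1 match at -249 and a kappaB match at -44, and Csf1 a kappaB match on the reverse strand at -154. Of all 32851 windows of this length in the table, 12.4% held the TATA box, 6.75% the AP-1 motif and 3.90% the kappaB motif. Il18 had a TATA box match on the reverse strand at -175 and Il1rn an AP-1 match at -141 in 1 of its 3 windows. Matches of letters describe these windows and were not tested against the expression values. Il10, Osm and Tnfsf9 are named only.

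All 10 members are protein-coding genes in the RefSeq annotation of the same build. Il1a (chr2:129299609-129310186) and Il1b (chr2:129364569-129371164) are neighbours on chromosome 2, and Il1rn (chr2:24336860-24351491) lies elsewhere on that chromosome. The outermost annotated ends of Il1a and Il1b lie beyond the start sites used for the windows, which therefore overlap other annotated transcripts. Tnf (chr17:35199367-35202007) and Tnfsf9 (chr17:57105287-57107758) share chromosome 17. The others are Il6 (chr5:30013114-30019975), Il10 (chr1:131019845-131024970), Il18 (chr9:50554700-50581841), Csf1 (chr3:107741048-107760469) and Osm (chr11:4236785-4241026).

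The deposited annotation placed 13052 cells in 10 types, of which 9403 were microglia, 506 border-associated macrophages (BAM), 634 Ly6CLow and 389 Ly6CHigh cells (monocyte-like cells, named as in the annotation), 352 Ly6C+Ly6G+ cells, 487 B cells, 728 CD8+ and 214 CD4+ T cells and 330 innate lymphoid cells (ILCs); 9 NK cells were not described. Pools held 760 to 1590 cells and 5745242 to 13742781 raw unique molecular identifiers (UMIs), and microglia had a median of 6411 to 7304 raw UMIs per cell in each pool. The type labels matched their defining markers: Tmem119 and P2ry12 were highest in microglia, Mrc1 and Pf4 in BAM, S100a8, S100a9 and Ly6g in Ly6C+Ly6G+ cells, which are the markers of neutrophils, and Ccr2, Ly6c2 and Plac8 in Ly6CHigh cells. Microglial transcripts also appeared in other types, with a mean corrected value of 1.89 for Tmem119 in BAM. Ly6CLow cells expressed Nr4a1, Ace and Treml4, known from Ly6C-low monocytes, but also the dendritic cell marker Cd209a (3.34), Gzma (5.85) of NK cells and Igkc (15.1) of B cells. Nr4a1 did not set them apart, at 5.55 against 5.09 in Ly6CHigh and 5.34 in Ly6C+Ly6G+ cells. It is also among the genes known to respond to tissue dissociation. Young and aged cells were loaded in separate wells, so age and well cannot be told apart, and 59 cell barcodes occurred in both wells. Hashtags 1 to 3 of each well were control and the others antibiotic pools, so hashtag and arm cannot be told apart either.

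Each of the 10 genes was highest in 1 of 5 myeloid types. Levels below are means over pools of the corrected value per cell, a depth-adjusted UMI count made by the submitters with SCTransform, given with their SD over pools. They describe the cell types and carry no test, and they compare types for 1 gene, never genes with each other. Il1a, Tnf, Il18 and Csf1 were highest in microglia, Il1b, Il1rn and Osm in Ly6C+Ly6G+ cells, Il6 in Ly6CHigh cells, Tnfsf9 in Ly6CLow cells and Il10 in BAM.

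Il1a reached 3.47 ± 0.83 (SD, n = 12 pools) in microglia, with pools from 2.26 to 5.37, and 0.860 ± 0.770 in BAM, the next type. It was above 0 in 69.0% of microglia, 26.7% of BAM, 38.6% of Ly6CHigh cells and 9.20% of CD8+ T cells, a type not known as its source, at median depths of 6934, 7610.5, 10339 and 7096.5 raw UMIs. CD4+ T cells, at 11.7% and a median of 5971.5 raw UMIs, and B cells, at 24.2% and 5070, are not known as main sources either. The share thus differed between lymphoid types and reached nearly that of BAM, and how much of it was RNA from other cells was not tested. In Ly6CHigh cells the share and the depth differed between ages. The share averaged 7.29% over young control and 7.32% over young antibiotic pools. It averaged 43.9% over aged control and 50.4% over aged antibiotic pools. Median depths of these cells were 13257.5 raw UMIs in young and 951 in aged mice. For the other members the share in CD8+ T cells is given for comparison only, because other lymphoid types were higher for some of them. Tnf reached 1.95 ± 0.83 in microglia (pools 0.906 to 3.46), then 0.776 ± 0.305 in Ly6CLow cells and 0.757 ± 0.429 in BAM. It was above 0 in 43.1% of microglia and 22.4% of CD8+ T cells, which can make it themselves. Microglia held 96.1% of the summed Il1a value and 91.6% of that of Tnf over all cells.

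Csf1 was 0.709 ± 0.292 in microglia (pools 0.327 to 1.19) and 0.224 ± 0.164 in Ly6C+Ly6G+ cells, and above 0 in 19.1% and 9.94% of them. It was above 0 in 11.2% of ILCs and 3.98% of CD8+ T cells. Microglia held 95% of its summed value. Its receptor Csf1r was also highest in microglia, at a mean corrected value of 18.0, followed by 11 in BAM and 3.58 in Ly6CLow cells. Il18 was the most even member over pools and types: 0.296 ± 0.018 in microglia, 0.241 ± 0.068 in BAM and 0.185 in Ly6CLow cells. No cell exceeded a corrected Il18 value of 4, and it was above 0 in 24.8% of microglia, 22.7% of BAM and 2.34% of CD8+ T cells.

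Il1b was highest in Ly6C+Ly6G+ cells at 29.3 ± 16.2 (n = 9 pools with at least 10 such cells, 9.76 to 58.9), followed by 11.6 ± 2.92 in Ly6CLow cells, 8.06 ± 3.74 in Ly6CHigh cells, 5.34 ± 2.77 in BAM, 2.47 in B cells, 2.02 in CD4+ T cells and 1.38 ± 0.52 in microglia. It was above 0 in 63.9% of Ly6C+Ly6G+ cells, 56.6% of Ly6CLow cells, 19.1% of microglia, 16.6% of B cells, 14.0% of CD4+ T cells and 7.69% of CD8+ T cells, so the microglial share was little above that of B cells. Because microglia were the most numerous, they still held 34.2% of the summed Il1b value, more than the 25.6% of Ly6C+Ly6G+ cells and the 19.6% of Ly6CLow cells. Within single pools the microglial share ran from 14.6% to 51.9%. Il1rn, the antagonist, was 0.833 ± 0.294 in Ly6C+Ly6G+ cells (0.3 to 1.25) and above 0 in 42.6% of them. It was 0.0713 in Ly6CHigh cells, 0.0566 in Ly6CLow cells and 0.00758 in microglia, where 0.542% of cells were above 0, against 0.137% of CD8+ T cells.

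Osm followed the same leading type, with 3.82 ± 1.41 in Ly6C+Ly6G+ cells (2.44 to 6.5), 1.57 ± 0.99 in Ly6CHigh cells and 0.631 ± 0.140 in microglia. It was above 0 in 70.7%, 44.5% and 28.3% of these cells, and in 10.3% of ILCs and 6.59% of CD8+ T cells. Tnfsf9 was 2.20 ± 1.03 in Ly6CLow cells (0.944 to 4.24), 0.367 in Ly6CHigh cells and 0.255 in BAM. Microglia, at 0.15 ± 0.071, were below CD4+ T cells (0.213) and B cells (0.163) too. It was above 0 in 33.1% of Ly6CLow cells, 13.0% of BAM and 7.60% of microglia. The share was 7.19% in B cells, 7.01% in CD4+ and 4.53% in CD8+ T cells, so the microglial share was little above that of B cells. Its receptor Tnfrsf9 was highest in ILCs, at 0.221.

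Il6 and Il10 were sparse in every type. Il6 was 0.197 ± 0.175 in Ly6CHigh cells, 0.113 ± 0.076 in Ly6CLow cells and 0.103 ± 0.029 in microglia, above 0 in 9.0%, 6.15% and 8.33% of cells and in 0.550% of CD8+ T cells. Il10 was 0.217 ± 0.202 in BAM and 0.0873 ± 0.130 in CD4+ T cells, above 0 in 4.94% and 4.21% of cells, and 0.0022 in microglia (0.0957% of cells). It was above 0 in 0 of 330 ILCs, which allows a share of up to 0.909%. These limits, like the shares, cover counting error only.

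The leading type stood apart from the next by more than the SD over pools for some members only. The gap between the leading type and the next exceeded the larger of their SDs for Il1a, Il1b, Il1rn, Tnf, Csf1, Osm and Tnfsf9. Of these, only for Tnfsf9 did the pools of the 2 types not overlap. For Il6, Il10 and Il18 the gap did not exceed the larger SD, and the pools overlapped. The leading type was the same for 10 of 10 members when cells under 2000 raw UMIs were left out and when each cell's value was capped at 10. Shares of cells were not thinned to 1 depth, because only corrected values and raw totals per cell were used.

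**Figure D1:**
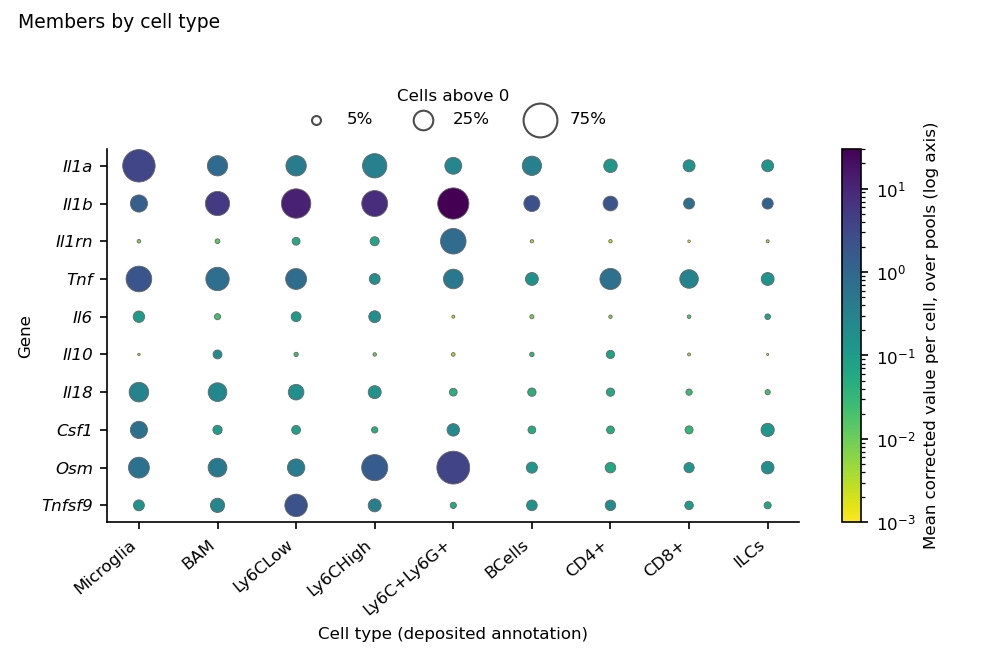
Levels of the 10 cytokines by annotated cell type, with types on the horizontal axis and genes on the vertical axis. Dot size is the percent of cells above 0 and colour the mean corrected value over pools on a log scale, with the largest values for Il1b in Ly6C+Ly6G+ cells (29.3) and Il1a in microglia (3.47) among their rows.

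**Figure D2:**
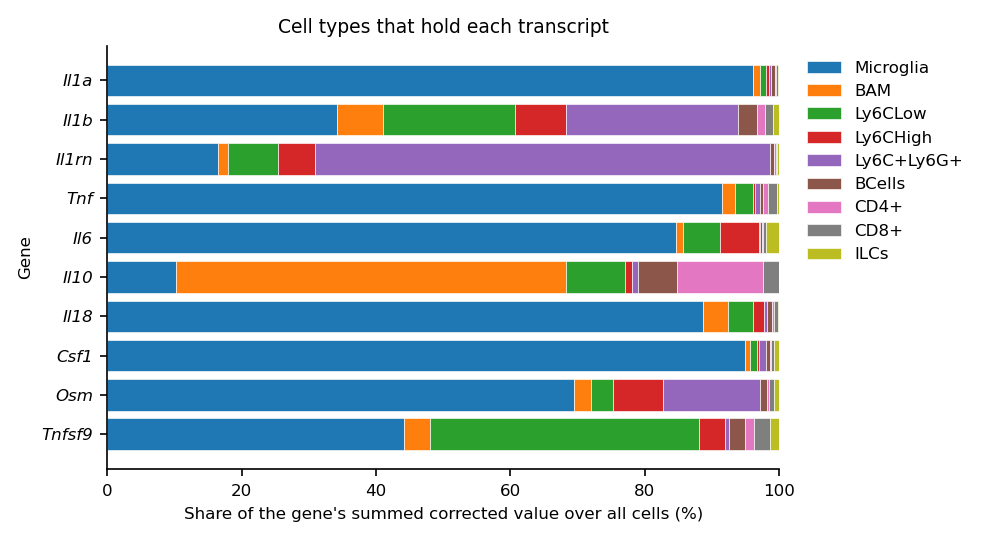
Percent of each cytokine's summed corrected value held by each cell type, as stacked bars over all 13052 cells. Microglia held 96.1% for Il1a and 34.2% for Il1b, and Ly6C+Ly6G+ cells 67.7% for Il1rn.

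Within microglia the values of several members lay in few cells. The share held by the top cells is high for any gene above 0 in few cells, so it does not compare genes. Tnfsf9 was above 0 in 715 microglia and Il6 in 783, against 6492 for Il1a. The 471 cells with the highest values, 5% of all microglia, held 83.2% of the summed Tnfsf9 value, 76.3% of Il1b, 68.2% of Il6 and 64.5% of Csf1. They held 47.1% for Osm, 46.0% for Tnf, 33.2% for Il18 and 31.2% for Il1a. For Il1b 413 microglia had a corrected value of at least 10 and 25 of at least 50. In Ly6C+Ly6G+ cells the top 5% held 27.7% of Il1b, so that its value was spread over more of the cells there. It was above 0 in 63.9% of them and in 19.1% of microglia.

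Some members were also detected together in the same microglia, in every pool. Tnf was above 0 in 66.6% of Tnfsf9-positive microglia and 41.9% of the others, and in 56.2% of Csf1-positive microglia and 40.5% of the others. Il1a was above 0 in 77.2% of Tnf-positive microglia and 62.7% of the others. These directions held in 12 of 12 pools, but positive cells were deeper: the median raw UMI total was 8264 in Tnfsf9-positive and 6946 in Tnfsf9-negative cells. Among microglia of 5000 to 9000 raw UMIs, a range chosen after seeing the data, the shares were 64.1% against 44.6% for Tnf by Tnfsf9, 54.1% against 43.9% for Tnf by Csf1 and 76.9% against 62.8% for Il1a by Tnf, again in 12 of 12 pools. Il6 and Il18 showed no such direction in every pool: with the other members they were higher in 5 to 9 of 12 pools in the same range. There Tnf was above 0 in 45.2% of Il6-positive and 46.1% of the other microglia, and in 45.2% of Il18-positive and 46.2% of the others. The widest counts were 9 of 12 pools, among them Il18 in 28.1% of Il1a-positive and 24.2% of the other microglia and Il6 in 10.0% of Il1b-positive and 8.81% of the others. In that range some pairs of the other members also fell short of every pool. Csf1 was above 0 in 19.4% of Tnfsf9-positive and 19.5% of the other microglia, and higher in the first in 6 of 12 pools. Il1b was above 0 in 20.6% of Csf1-positive and 18.0% of the other microglia, and higher in the first in 8 of 12 pools. These shares describe cells of the same libraries and were given no test.

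Over the 9 types of at least 100 cells, the genes with the most similar profile were named by Pearson's r of the log2(mean + 0.05) levels among 10824 genes. They were Crybb1 (0.991), Fscn1 (0.990) and Sgk1 (0.987) for Il1a, and the closest gene was Fcgr4 for Il1b (0.977), Olr1 for Il1rn (0.994), Lrsam1 for Tnf (0.974), Gpr108 for Il6 (0.948) and Lum for Il10 (0.938). It was Cdc42bpb for Il18 (0.995), Tmx3 for Csf1 (0.955), Tnfaip2 for Osm (0.989) and Gfra2 for Tnfsf9 (0.965). Il1rn, Il6 and Il10 had levels below the added 0.05 in most types, so their r rests on few types. The types share the same libraries, so these values carry no test.

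Whether microglial cytokine RNA changed when the gut microbiota was depleted was examined first. Il1a was the member that fell. Its mean corrected value over control pools was 3.17, 4.17 and 3.57 at 12 weeks and 3.67, 5.37 and 4.20 at 72 weeks. Over antibiotic pools it was 2.26, 3.06 and 2.64 at 12 weeks and 3.27, 3.52 and 2.78 at 72 weeks. At each age every antibiotic pool lay below every control pool, as for 2.63% of all genes tested. The share of microglia above 0 showed the same separation at both ages, with 69.6%, 72.1% and 72.2% in young control, 57.0%, 65.0% and 61.5% in young antibiotic, 73.4%, 78.4% and 75.4% in aged control and 66.0%, 70.3% and 67.4% in aged antibiotic pools.

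Averaged over both ages, Il1a was lower after antibiotics by a log2 change of -0.45 ± 0.09 (SE, limma on log2(pool mean + 0.05), adjusted p = 0.00669 over 8759 genes), with group means of 2.92 and 4.03. An exact two-sided permutation test of the arms within ages gave p = 0.005, the smallest its 400 arrangements allow. It was the only member called (adjusted p under 0.05) of 8 tested, where 5.4% of all 8759 genes were called and 3.24% were called lower. In the young mice the change was -0.45 ± 0.13 (limma, adjusted p = 0.176) and in the aged mice -0.45 ± 0.13 (adjusted p = 0.0604), so that neither age alone passed the threshold of 0.05. With 3 pools against 3 the exact permutation test cannot go below 0.1, the value it gave for Il1a at each age. The antibiotic effect differed between ages by -0.0029 ± 0.18 for Il1a (limma, adjusted p = 0.999), and 0% of all genes were called in that comparison.

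Tnfsf9 had a larger log2 difference than Il1a over both ages, without passing the test. Its pools read 0.139, 0.0803 and 0.174 in young control, 0.0753, 0.0907 and 0.115 in young antibiotic, 0.210, 0.271 and 0.231 in aged control and 0.0683, 0.229 and 0.109 in aged antibiotic mice. Aged antibiotic pool 2 lay among the aged control pools and the other two below them. The log2 difference over both ages was -0.52 ± 0.16 (limma, adjusted p = 0.0646) and in the aged mice -0.72 ± 0.22 (adjusted p = 0.0819). Without aged antibiotic pool 2 it was -0.69 (adjusted p = 0.00426) over both ages and -1.06 (adjusted p = 0.00746) in the aged mice, and without young control pool 2 the value over both ages was -0.62 (adjusted p = 0.0331). With all pools kept it was also called when log2 values were averaged per cell (adjusted p = 0.0346 over both ages and 0.039 in the aged mice), and so its call depended on the pools and on the summary used.

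The remaining 6 members tested were not called. Over both ages the log2 differences were -0.19 for Il6, -0.16 for Il1b and for Osm, -0.15 for Tnf, -0.09 for Il18 and -0.05 for Csf1. All 8 members tested had a value below 0, as had 55.2% of all genes tested, and their median was -0.16 against -0.01 over all genes. In the young mice 0 of 8 were called (0.137% of all genes were) and the median was -0.29. In the aged mice 0 of 8 were called (3.23% of all genes were), and Il1b and Tnf had differences of 0.01 and 0.04. Il1rn (pools 0 to 0.0199) and Il10 (0 to 0.00919) were under the filter on low values in microglia, a mean of 0.05, and were not tested.

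**Figure D3:**
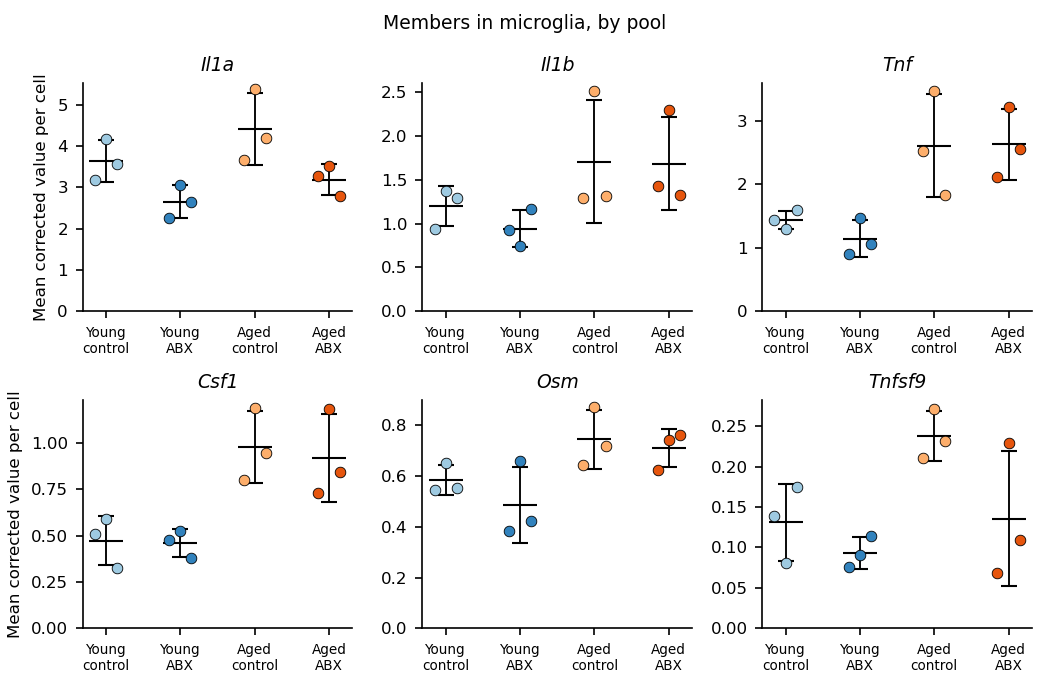
Mean corrected value per microglial cell for Il1a, Il1b, Tnf, Csf1, Osm and Tnfsf9, 1 point per pool, with the group mean and SD (n = 3 pools). For Il1a the 3 antibiotic pools lie below the 3 control pools at each age, and for Tnf and Csf1 the 6 aged pools lie above the 6 young pools.

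Genes that act on or beside these cytokines were counted in the same microglia. Their lists, like the members, were chosen with earlier results of these data known, so counts set beside the share of all genes carry no test. Of 9 tested genes of cytokine processing and cell death, 4 were lower after antibiotics over both ages and 0 higher, with a median log2 change of -0.20, where 3.24% of all genes were called lower and 2.16% higher. The 3 with the largest change were Nlrp3 (-0.38, adjusted p = 0.0171), the inflammasome sensor, Gsdmd (-0.22, 0.0219), the pore protein, and Casp1 (-0.22, 0.036), the protease that cleaves the interleukin-1β precursor, all by limma. The adaptor Pycard also passed (-0.20, adjusted p = 0.0248) and was the only one of them called in the aged mice alone (-0.28, adjusted p = 0.0329). No gene of this list was called in the young mice, where its 2 most abundant members, Pycard and Casp4, differed by -0.11 and -0.26.

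Among 8 tested receptors and binding proteins, Lifr, a receptor chain shared by oncostatin M and leukemia inhibitory factor, rose (log2 0.32, limma adjusted p = 0.0158), and Il6st (-0.23, 0.0276) and Il10rb (-0.21, 0.00436), signalling chains for the interleukin-6 and interleukin-10 families, fell. Their list had a median of -0.02. In neither age alone was a receptor called, with Csf1r at 0.02 and -0.03 and Il10ra at 0.05 and -0.01 in young and aged mice. Of 9 other cytokines tested, Tnfsf13b (BAFF, a B cell survival factor) rose by 0.29 (adjusted p = 0.0177). Of 12 feedback regulators, Dusp1, a phosphatase that dampens MAP kinase signalling, rose by 0.22 (adjusted p = 0.0175) and by 0.42 in the aged mice (adjusted p = 0.00413). Dusp1 also belongs to the 23 genes known to respond to tissue dissociation, of which 22 were tested and it alone was called over both ages; in the aged mice Hspa8 of that list fell by 0.36 (adjusted p = 0.0276). The summed value of the dissociation genes was 503 to 525 in young control, 475 to 545 in young antibiotic, 463 to 482 in aged control and 471 to 485 in aged antibiotic pools; its part in the Il1a difference was not tested.

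It was examined next whether the members differed between aged and young microglia, a comparison in which the well differs too. Tnf, Csf1, Il1b and Osm were higher in aged microglia over both arms, 4 of 8 members tested, where 9.86% of all 8759 genes were called and 7.52% were called higher. The median log2 change of the members was 0.46 against 0.02 over all genes tested. In the control arm alone 2 of 8 were called, Tnf and Csf1, where 2.66% of all genes were called.

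Tnf was 1.43, 1.30 and 1.59 in young control and 0.906, 1.46 and 1.05 in young antibiotic pools. It was 2.53, 3.46 and 1.83 in aged control and 2.11, 3.22 and 2.56 in aged antibiotic pools. Every aged pool lay above every young pool of its arm, as for 5.37% of all genes tested. The log2 change was 0.99 ± 0.13 (limma, adjusted p = 4.73e-05), with means of 2.62 and 1.29, and the exact permutation test within arms gave p = 0.005, its smallest value. In controls alone it was 0.80 ± 0.18 (adjusted p = 0.0222), and this call was lost without young control pool 1 (adjusted p = 0.0752) or 2 (0.105) or aged control pool 1 (0.0719) or 2 (0.149), where limma's log2 change was 0.57 to 0.79. The call in controls was also lost with no filter on low values (limma, adjusted p = 0.170) and with a constant prior variance (0.0649). Scored as the share of cells above 0, Tnf missed the threshold there too (limma, adjusted p = 0.0930).

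Csf1 was 0.507, 0.589 and 0.327 in young control and 0.479, 0.527 and 0.379 in young antibiotic pools. It was 0.803, 1.19 and 0.945 in aged control and 0.732, 1.19 and 0.844 in aged antibiotic pools. Aged and young pools again did not overlap. The log2 change was 0.95 ± 0.13 (limma, adjusted p = 5.11e-05; exact permutation p = 0.005), with means of 0.950 and 0.468, and 0.99 ± 0.18 in controls (adjusted p = 0.00358). Its receptor Csf1r went the other way, at 16.3 in aged and 19.4 in young microglia (log2 -0.25, limma adjusted p = 0.00168).

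Il1b was 0.940, 1.38 and 1.29 in young control, 0.930, 0.739 and 1.16 in young antibiotic, 1.29, 2.52 and 1.31 in aged control and 1.43, 2.29 and 1.33 in aged antibiotic pools. The ranges overlapped in controls, and pool 2 was the highest in both aged arms. The log2 change was 0.61 ± 0.16 (limma, adjusted p = 0.0156; exact permutation p = 0.02). Osm was 0.545, 0.652 and 0.554 in young control, 0.382, 0.657 and 0.421 in young antibiotic, 0.643, 0.871 and 0.717 in aged control and 0.624, 0.742 and 0.762 in aged antibiotic pools, again with some overlap. Its log2 change was 0.42 ± 0.10 (limma, adjusted p = 0.0084; exact permutation p = 0.02). Scored as the share of cells above 0, both missed the threshold (adjusted p = 0.0592 for Il1b and 0.0576 for Osm). Both genes were highest in Ly6C+Ly6G+ cells, and the summed value of 7 neutrophil markers in microglia was 0.628 to 0.712 in aged control and 1.08 to 3.02 in aged antibiotic pools against 2.25 to 6.32 and 2.34 to 20.4 in the young arms. Their part in these differences was not tested.

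The other members were not called over both arms. Il1a differed by 0.27 (limma, adjusted p = 0.0733), Il6 by 0.28 (0.114), Tnfsf9 by 0.49 (0.058) and Il18 by -0.02 (0.882). Some alternatives moved the first 3 past the threshold. Tnfsf9 was called with a pseudocount of 0.5 (adjusted p = 0.038), with log2 values averaged per cell (0.0251), with values capped at 10 (0.0495) and in cells of at least 2000 raw UMIs (0.0395). Il1a was called with log2 values averaged per cell (adjusted p = 0.018) and as the share of cells above 0 (0.0168), and Il6 in cells of 5000 to 9000 raw UMIs (0.021). In controls Tnfsf9 did not overlap between ages, with 0.0803 to 0.174 in young and 0.210 to 0.271 in aged pools, but its change of 0.70 ± 0.22 missed the threshold (adjusted p = 0.135), and 12.6% of all genes did not overlap in this direction. Il18 pools spanned 0.262 to 0.326 over all 4 groups. The 5 B cell markers summed to 0.342 to 0.464 in young and 1.05 to 1.28 in aged microglia, and 8 microglial markers to 111 to 120 and 95.7 to 111; their part in the age differences was not tested.

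**Figure D4:**
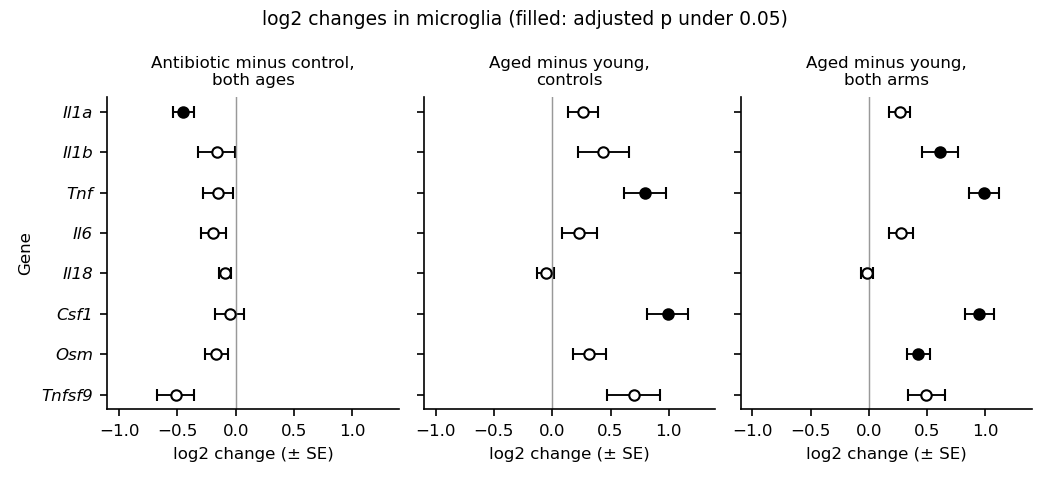
Log2 changes with SE of the 8 members tested in microglia for 3 comparisons, on the log2(pool mean + 0.05) scale, with filled points where the adjusted p was under 0.05. Il1a is the filled point for antibiotics over both ages, and Tnf, Csf1, Il1b and Osm are filled for age over both arms.

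Among the other cytokines tested in microglia, 3 of 9 were higher in aged cells. They were Tnfsf13b (log2 0.67, limma adjusted p = 1.52e-06), Mif (0.39, 0.000106) and Ltb (0.31, 0.0238), which encodes lymphotoxin-β. The same 3 were called in controls alone, at 0.69, 0.33 and 0.59. Aged pools also held more CD8+ T cells, with 56 to 122 against 5 to 31 in young pools. The part of transcripts from lymphoid cells in these 3 rises was not tested. Of the receptors Lifr fell with Csf1r (-0.26, adjusted p = 0.0317), and of the processing genes Nlrp1b rose (0.32, adjusted p = 0.0156). No feedback regulator was called over both arms, with Zfp36 at -0.05 and Dusp1 at -0.10. Of the 22 dissociation genes tested, 4 were higher in aged microglia, led by the chemokines Ccl3 (0.62) and Ccl4 (0.57) and by Nr4a1 (0.40), and 7 were lower, led by Klf2 (-0.54), Hspa1a (-0.36) and Fosb (-0.35), where 7.52% of all genes were called higher and 2.34% lower. The median of this list was -0.12, and its part in the age differences of the members was not tested.

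In BAM, Tnf fell after antibiotics. Its pools were 0.667, 0.706 and 0.860 in young control, 0.361, 0.545 and 0.293 in young antibiotic, 1.86, 1.05 and 1.08 in aged control and 0.394, 0.682 and 0.58 in aged antibiotic mice. Control and antibiotic pools did not overlap at either age, as for 0.358% of all genes tested in this direction. The log2 change over both ages was -1.02 ± 0.19 (limma, adjusted p = 0.0381 over 8942 genes), 1 of 8 members tested, where 0.0559% of all genes were called. The p-value was close to the threshold: leaving out 1 pool at a time gave -0.89 to -1.13 and adjusted p-values of 0.0438 to 0.182, and the call was lost in 11 of 12 cases. It was also lost with a pseudocount of 0.5 (-0.63, adjusted p = 0.0934), in cells of at least 2000 raw UMIs (-0.93, 0.106) and with at least 20 cells in a pool (-1.03, 0.0551), and in all in 15 of the 17 alternatives run. In cells at 0 for Tmem119, P2ry12 and Sall1, which were 129 of 506 BAM, it was -0.85 (adjusted p = 0.783). The sum of the 8 microglial markers in BAM was 22.4 to 42.9 in young control, 20.8 to 43.4 in young antibiotic, 25.7 to 41.8 in aged control and 13.0 to 21.3 in aged antibiotic pools, so in the aged mice it moved with Tnf; its part in the result was not tested.

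Other members in BAM were not called. Il1a differed by -1.13 ± 0.33 after antibiotics (limma, adjusted p = 0.359) and Il1b by 1.17 ± 0.26 between aged and young cells (adjusted p = 0.077), where 0.145% of all genes were called. Il10, for which BAM were the leading type, ran from 0 to 0.128 in young control, 0.0278 to 0.455 in young antibiotic, 0.200 to 0.595 in aged control and 0 to 0.240 in aged antibiotic pools. These ranges overlapped between most groups, and 17 to 62 BAM per pool gave few positive cells.

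In Ly6CLow cells, the leading type for Tnfsf9, no member was called after antibiotics, nor was any of the 8613 genes tested (0% called). Between aged and young cells over both arms 3 of 9 members were called, where 7.38% of all genes were. Tnfsf9 was 1.64, 3.61 and 2.04 in young control, 3.28, 4.24 and 2.22 in young antibiotic, 1.71, 0.944 and 2.59 in aged control and 1.27, 1.41 and 1.48 in aged antibiotic pools. The ages overlapped in controls, and the lowest young antibiotic pool, at 2.22, was above the aged antibiotic pools. Tnfsf9 fell by 0.82 ± 0.22 on the log2 scale (limma, adjusted p = 0.0298).

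Il6 also fell in Ly6CLow cells, from 0.138, 0.146 and 0.1 in young control and 0.116, 0.212 and 0.286 in young antibiotic pools to 0.114, 0.0417 and 0.0349 in aged control and 0.0833, 0.029 and 0.060 in aged antibiotic pools. Only aged control pool 1 reached into the young range. The log2 change was -0.96 ± 0.27 (limma, adjusted p = 0.0367). Csf1 rose, from 0.0172, 0.0488 and 0.06 in young control and 0 in all 3 young antibiotic pools to 0.0286, 0.319 and 0.116 in aged control and 0.188, 0.159 and 0.120 in aged antibiotic pools. Its log2 change was 1.47 ± 0.33 (limma, adjusted p = 0.0111), a value that depends on the pseudocount because 3 pools were at 0.

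The depth and the makeup of the Ly6CLow cells also differed between ages. Cells under 2000 raw UMIs were 12 of 274 (4.38%) in the young and 114 of 360 (31.7%) in the aged well, and cells at 0 for the 3 microglial markers 66.8% and 48.3%. Neutrophil markers summed to 1.44 to 27.6 in young and 1.01 to 91.1 in aged pools of these cells, and B cell markers to 0.1 to 1.31 and 0.686 to 57.6. Among cells of at least 2000 raw UMIs the changes were 1.63 for Csf1 (limma, adjusted p = 0.140), -0.91 for Il6 (0.506) and -0.35 for Tnfsf9 (0.774). Among cells at 0 for the microglial markers they were -0.80 for Il6 (adjusted p = 0.645) and -0.23 for Tnfsf9 (0.861), and Csf1 fell under the filter, at 0 to 0.0303 in young and 0 to 0.148 in aged pools. None of the 3 was called in either subset, although the Csf1 and Il6 changes stayed about as large in the deeper cells. The part of depth and of other cells' transcripts in these differences was not tested. Leaving out 1 pool at a time, between 1 and 3 members were called. Over all alternatives in which it was tested, the Il6 call was lost in 12 and kept in 5. That of Tnfsf9 was lost in 10 and kept in 7, and that of Csf1 lost in 1 and kept in 15.

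Set beside microglia, the age changes of Tnfsf9, Il6 and Osm had the opposite sign in Ly6CLow cells. These were the more common signs among all genes tested: 58.4% had a change above 0 in microglia and 67.4% a change below 0 in Ly6CLow cells. The difference of the log2 changes, microglia minus Ly6CLow cells in the same pools, was 1.32 ± 0.36 for Tnfsf9 (limma, adjusted p = 0.0665), 1.24 ± 0.30 for Il6 (0.0512) and 1.34 ± 0.32 for Osm (0.0512). None passed the threshold, where 1.66% of 7753 genes did. For Csf1 the difference was -0.52 (adjusted p = 0.336).

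In Ly6CHigh cells Il1a was higher in the aged pools, 1 member called where 1.25% of 8190 genes were. Young antibiotic pool 2, with 6 such cells, was left out. Pools were 0.0417, 0.1 and 0.0769 in young control, 0 and 0.195 in young antibiotic, 0.750, 0.833 and 0.233 in aged control and 0.292, 0.474 and 0.788 in aged antibiotic mice. The lowest aged pool, at 0.233, was above the highest young pool, at 0.195. The log2 change was 2.27 ± 0.45 (limma, adjusted p = 0.0219). Cells under 2000 raw UMIs were 1.41% of young and 54.7% of aged Ly6CHigh cells, with median totals of 13257.5 and 951. Cells at 0 for the microglial markers Tmem119, P2ry12 and Sall1 were 80.3% of young and 40.1% of aged Ly6CHigh cells. Among cells of at least 2000 raw UMIs the change was 0.29 (limma, adjusted p = 0.985). Among cells at 0 for Tmem119, P2ry12 and Sall1 the aged pools were at 0 to 0.0625. Those pools held only 7 to 23 such cells, so few positive cells set these values.

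**Figure D5:**
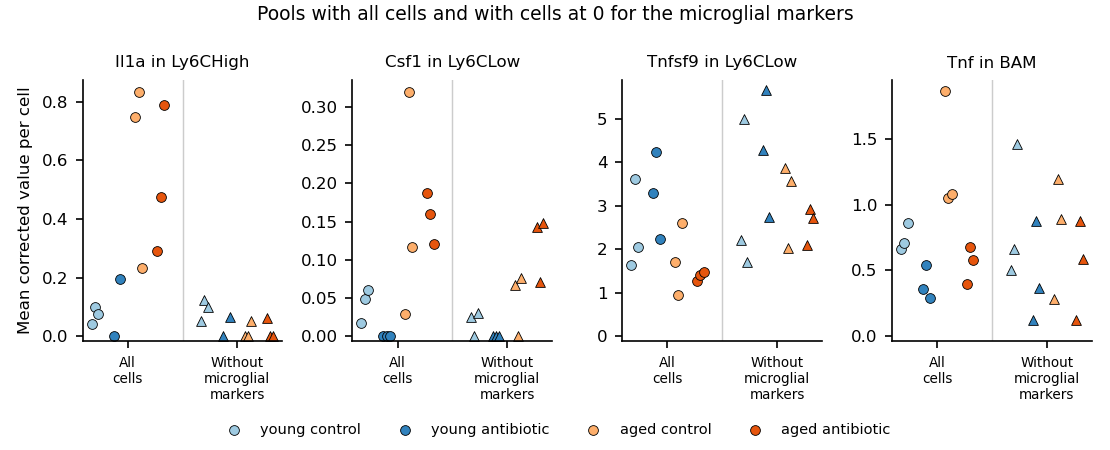
Mean corrected value per pool for Il1a in Ly6CHigh cells, Csf1 and Tnfsf9 in Ly6CLow cells and Tnf in BAM, for all cells of the type and for cells at 0 for the microglial markers Tmem119, P2ry12 and Sall1. Aged Il1a values were 0.233 to 0.833 in all Ly6CHigh cells and 0 to 0.0625 in the cells at 0 for these markers, 7 to 23 per aged pool.

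In Ly6C+Ly6G+ cells, the leading type for Il1b, Il1rn and Osm, no member was called in any comparison; 3 pools with fewer than 10 cells were left out. Il1b was 27.3, 10.3 and 58.9 in young control pools of 112, 15 and 23 cells, 41.9 and 26.6 in young antibiotic pools of 10 and 73 cells, 15.2 and 35.1 in aged control and 38.3 and 9.76 in aged antibiotic pools. The pools of a group differed widely, and the ranges of the 4 groups overlapped. Osm was 2.44 to 3.74 in young control, 3.2 and 5.07 in young antibiotic, 3.00 and 5.09 in aged control and 6.5 and 2.66 in aged antibiotic pools, and Il1rn was 0.733 to 1.13, 0.3 and 0.959, 0.650 and 1.04, and 1.25 and 0.634. The groups overlapped for all 3 genes. At most 0.0289% of the 6912 genes tested were called in any comparison of these cells.

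No member was called in B cells, CD8+ T cells or ILCs, where 0.358%, 1.79% and 3.11% of all genes were called between ages over both arms, and CD4+ T cells had too few cells per pool to be fitted. Among the receptors, the interleukin-18 receptor chains were found in lymphoid cells: Il18r1 was 0.729 in CD4+ T cells and 0.603 in ILCs, and Il18rap 0.545 in ILCs. The decoy receptor Il1r2 was highest in Ly6C+Ly6G+ cells at 2.90, where Il1b and Il1rn were highest too. Il1r1, the signalling receptor of interleukin-1, did not exceed 0.0363 in any type, and Osmr, a chain of the oncostatin M receptor, not 0.0138. Il6ra and Il10ra were highest in microglia, at 2.31 and 2.79.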

How the data were processed

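RNA of brain immune cells was measured by CITE-seq in 2 wells, and the deposited metadata gave each cell's type, hashtag and raw UMI count, with 35 further columns not used. The submitters' processing notes list Cell Ranger 3.0.2, Seurat 3.0.1 and mm10, without their roles. The expression values deposited by the authors are SCTransform corrected values, treated here as a score and not as counts; the covariates they were corrected for are not given in the sources used here. No doublet filter was added to the deposited set of cells. Hashtags gave the 12 pools (n = 3 per group), the replicates of every test; p-values measure the spread between these pools.

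For each pool and cell type the corrected values were averaged across cells. limma 3.58.1 (R 4.3.3, trended prior) was fitted to log2(mean + 0.05) over all genes with a mean of at least 0.05, with Benjamini-Hochberg adjustment over these genes in each of 6 contrasts and a threshold of 0.05. Fold changes are on this scale and understate those of low genes. Rarer types used pools of at least 10 cells. Exact permutation tests and figures used Python 3.11.15. Only the microglial fit was tested on simulated pool means, for the age contrast over both arms. The other contrasts and cell types were not simulated. Named genes were the 10 members, up to 3 higher and 3 lower genes per list and contrast in microglia (the 2 most abundant where none passed), and the genes most alike in profile; the fourth processing gene called was added to these. The members and lists were chosen with earlier results of these data known. Alternatives were other pseudocounts, filters, summaries per cell, scaling, prior variance, cell subsets and leaving out each pool. The subset of 5000 to 9000 UMIs, the marker-negative cells and the alternatives for BAM and Ly6CHigh cells were chosen after seeing the data.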

Additional observations from a re-analysis of the deposited data

How the results depend on the processing

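No paired analysis was possible because the labels give the arms and ages no shared replicate numbers; a pool's number is only its hashtag's order. The fall of Il1a in microglia after antibiotics over both ages kept its direction and its call under the alternatives run, with 1 exception: with no filter on low values the adjusted p (limma) was 0.0735. Counts of called members moved by over 1.5 times in these cases, while smaller moves, such as from 2 to 3 for age in controls and from 4 to 6 over both arms with log2 values per cell, also occurred. With no filter on low values they were 0 for antibiotics over both ages, 0 for age in controls, 2 for age over both arms and 1 for age in Ly6CLow cells. With the mean of log2 values per cell the antibiotic counts were 1 at 12 weeks, 2 at 72 weeks and 2 when the ages were averaged. With the share of cells above 0 they were 1 for antibiotics in young mice and 1 for age in controls. In aged mice the antibiotic count was 1 with values capped at 10 and 1 in cells of 5000 to 9000 raw UMIs, and with a constant prior variance the age count in controls was 1. In Ly6CLow cells the age count was 0 in cells of at least 2000 raw UMIs and 0 in cells at 0 for the microglial markers. In the rarer types, requiring 20 cells in a pool gave 1 member for antibiotics at 72 weeks, 0 with the ages averaged and 0 for age over both arms. Leaving out 1 pool at a time, microglial counts ran from 0 to 1 for antibiotics at 72 weeks, 1 to 2 with the ages averaged, 1 to 3 for age in controls and 4 to 5 over both arms, and in Ly6CLow cells from 1 to 3. The cause was not tested, beyond the larger number of genes tested without a filter.

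Reversals in microglia touched only values near 0 that were not called. For antibiotics in young mice Csf1 became 0.00924 with scaled pool means and 0.0368 in cells of 5000 to 9000 UMIs. In aged mice Il1b became -0.0208, -0.00231 and -0.105 and Tnf -0.0377, -0.0308 and -0.0892 with log2 values per cell, capped values and the share of cells, Il6 0.00107 and Csf1 0.0158 with log2 values per cell, Csf1 0.129 with the share of cells and Il18 0.0600 in cells of 5000 to 9000 UMIs. Over both ages Csf1 became 0.00214 and 0.0304 with log2 values per cell and the share of cells. The difference of the Il1a effect between ages became 0.0354 with capped values, 0.0434 in cells of at least 2000 UMIs and 0.0635 with the share of cells, and the age change of Il18 0.0148 and 0.0300 in cells of at least 2000 and of 5000 to 9000 UMIs. Leaving out 1 pool at a time, values also crossed 0 for Csf1 with antibiotics (-0.232 to 0.149 in young mice, -0.282 to 0.0483 in aged mice and -0.163 to 0.0274 over both ages), for Il1b (-0.226 to 0.319), Tnf (-0.189 to 0.261) and Osm (-0.151 to 0.0541) at 72 weeks, for the difference of the Il1a effect (-0.126 to 0.147) and for Il18 with age (-0.043 to 0.00387). Cells per pool and raw UMIs per cell limit what the rarer types can show.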
